A study of Anas platyrhynchos with 2 samples.

Results

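The miR-23b, miR-27b and miR-24 cluster is known from vertebrates as a group of miRNAs cut from a single primary transcript, which was not checked in these data. Its members were found in the deposited table of mature miRNAs by name, as every listed arm of miR-23b, miR-27b or miR-24. The naming rule uses no measured value, but it was set with earlier results of these data known. The rule gave 6 of the 288 rows, which are the 5p and the 3p arm of 3 hairpins: gga-miR-27b-3p, gga-miR-27b-5p, gga-miR-24-3p, gga-miR-24-5p, gga-miR-23b-3p and gga-miR-23b-5p. The prefix gga stands for chicken, whose names the table uses for duck miRNAs.

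The small RNA came from duodenum of Jingjiang ducks, a breed kept for eggs, all of them female and 1 day old. The transported group stood in carrying cases in a vehicle for 8 h, at 40 to 70 km per h on ordinary and bumpy roads, and its tissue is labelled as duodenum with mucosal damage from transport stress. The control group was placed in the same cases without a journey, and its tissue is labelled as normal duodenum. The study held 20 ducks, each group has 1 library, and how many ducks a library pools is not stated. The library CT was read as transported and CC as control from the last letter of each name, which no label spells out, so directions are given for CT against CC. The counts over the table came to 5272666 in CT and 5772509 in CC, and levels are in CPM, the count per 1e6 counts of the library. Since each group is 1 library, no difference has a replicate check, no test was run and no p-value is given. Intervals are exact at the 95% level and cover counting error only.

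As background, a miRNA hairpin is cut out of its primary transcript by Drosha and then trimmed by Dicer into a duplex of a 5p and a 3p arm, of which an Argonaute protein mostly keeps a single strand. The kept strand finds its target mRNAs mainly through the seed, its bases 2 to 8. In human the cluster lies within an intron of AOPEP, and miRNAs cut from a shared transcript can still end at different levels, because cutting, strand choice and decay act on each hairpin. The cluster is well known from endothelial cells and blood vessel growth. In human cells miR-27b represses PPARG, a driver of fat cell formation, and miR-24 represses the cell cycle genes MYC and E2F2. In mice miR-23b dampens inflammatory cytokine signalling by repressing TAB2 and TAB3.

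The sequences of the 3p arms are shown because they held nearly all counts of the cluster. They are the mature sequences of the deposited table, 5′ to 3′, with the seed in capitals.
gga-miR-27b-3p: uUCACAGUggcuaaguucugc
gga-miR-24-3p: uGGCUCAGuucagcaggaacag
gga-miR-23b-3p: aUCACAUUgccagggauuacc
The arms of miR-27b and miR-23b begin almost alike. Of their first 8 bases 6 are the same, and miR-27b-3p differs from miR-23b-3p by U1A and G7U, with positions counted from the 5′ end, the base of miR-27b-3p first and that of miR-23b-3p last. The second of these changes lies in the seed. The seed of miR-24-3p begins with a different run of bases. No other row of the table had the same seed at bases 2 to 8 as any of the 6 members, and 0 rows came within 2 differences of a member over at least 18 aligned bases. Summing rows of identical or contained sequence therefore left all 6 members as they were.

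The seed letters of miR-27b-3p do occur at another offset in miR-128-3p, a miRNA abundant in neurons, which was picked out for this shared run and not by the naming rule. They are in capitals here.
gga-miR-128-3p: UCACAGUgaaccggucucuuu
In miR-128-3p the run fills bases 1 to 7, so its own seed is shifted by 1 base. It had 6431 counts in CT and 9511 in CC, which is 1220 CPM and 1648 CPM, well under the level of miR-27b-3p in both libraries. The run also lay in miR-101-2-5p, at bases 8 to 14, and the seed letters of miR-24-3p lay in miR-146a-3p, at bases 9 to 15. These had at most 9 counts in either library, and a run outside the seed is a match of letters only.

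The hairpins the arms come from are printed next, because the arm balance below compares their 5p and 3p arms. They are the hairpin sequences as deposited under chicken names, with the 5p and then the 3p arm in capitals.
gga-mir-27b: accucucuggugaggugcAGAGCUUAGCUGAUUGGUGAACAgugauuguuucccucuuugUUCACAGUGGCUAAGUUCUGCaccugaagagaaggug
gga-mir-24: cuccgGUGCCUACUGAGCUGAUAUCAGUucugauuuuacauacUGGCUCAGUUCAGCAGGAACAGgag
gga-mir-23b: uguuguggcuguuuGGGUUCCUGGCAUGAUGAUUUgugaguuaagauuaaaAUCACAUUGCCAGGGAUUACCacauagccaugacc
The table gives no genome position for any of the 6 rows, so no coordinates are stated. Folded by minimum free energy, the hairpin of miR-27b was predicted at -50.3 kcal per mol over 97 nt, that of miR-23b at -39.2 over 86 nt and that of miR-24 at -27.8 over 68 nt. Per base this is -0.52, -0.46 and -0.41 kcal per mol in that order. The hairpins are deposited at different lengths, which weighs on the totals. In these predicted folds all 21 bases of the miR-27b 3p arm were paired, against 18 of 22 in miR-24 and 18 of 21 in miR-23b. The arms were separated by 19 bases in miR-27b, 15 in miR-24 and 16 in miR-23b.

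The cluster was led by miR-27b-3p in both libraries, followed by miR-24-3p and then miR-23b-3p. gga-miR-27b-3p had 46168 counts in CT and 53425 in CC, which is 8756 CPM in CT (8676 to 8836) and 9255 CPM in CC (9177 to 9334). It stood at rank 12 of all rows in CT and at rank 11 in CC. gga-miR-24-3p had 3811 counts in CT and 5912 in CC, at 723 CPM (700.0 to 746) and 1024 CPM (998 to 1051). Its rank was 43 in CT and 39 in CC. gga-miR-23b-3p had 1314 counts in CT and 1215 in CC, at 249 CPM (236 to 263) and 210.5 CPM (199 to 223). Its rank was 67 in CT and 68 in CC. The order of these arms was thus the same in both libraries, and their intervals did not overlap in either library.

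The 5p arms were all far lower. gga-miR-27b-5p, which was the only one of them with more than 50 counts, had 161 counts in CT and 188 in CC, at 30.5 CPM (26.0 to 35.6) and 32.6 CPM (28.1 to 37.6). gga-miR-24-5p had 15 counts in CT and 11 in CC, at 2.84 CPM (1.59 to 4.69) and 1.91 CPM (0.951 to 3.41). gga-miR-23b-5p had 7 counts in CT and 18 in CC, at 1.33 CPM (0.534 to 2.74) and 3.12 CPM (1.85 to 4.93). The intervals of miR-24-5p and miR-23b-5p overlapped each other in each library, so their order cannot be told at this depth. For a count of 0 a floor of 3 counts was set, which is 0.569 CPM in CT and 0.520 CPM in CC. This floor bounds 1 side only and is not the upper end of the intervals above. All 6 members had counts above 0 in both libraries.

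**Figure D1:**
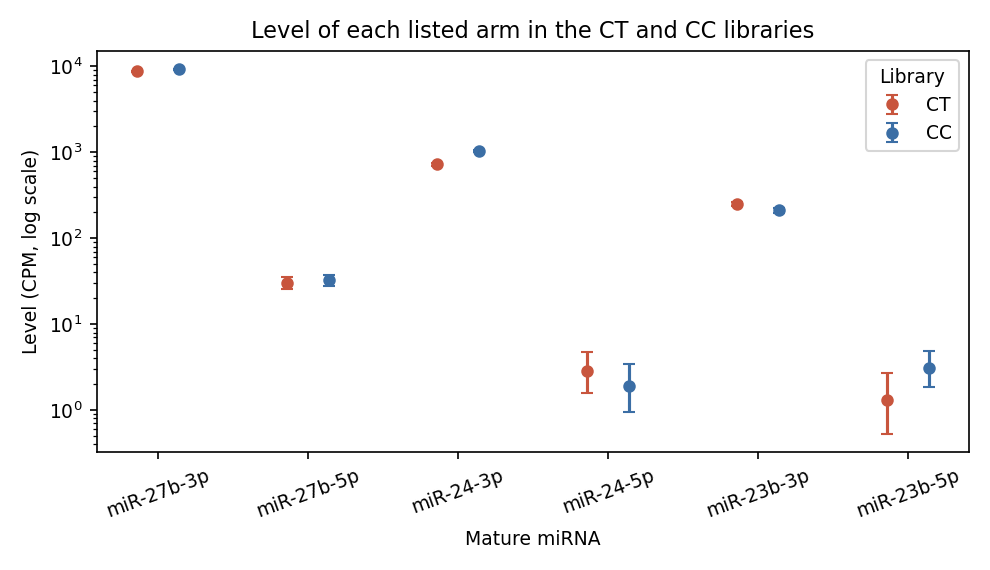
Level in CPM on a log axis of each listed arm, in CT (red, left of each pair) and CC (blue), with exact Poisson 95% intervals that cover counting error only. The 3p arms lie at 249 to 8756 CPM in CT and 210.5 to 9255 CPM in CC, and each 5p arm lies far below its 3p partner.

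Summed over both arms, miR-27b held 90.0% of the cluster's counts in CT (exact interval 89.7 to 90.3%) and 88.2% in CC (88.0 to 88.5%). miR-24 held 7.43% in CT (7.21 to 7.66%) and 9.75% in CC (9.51 to 9.99%). miR-23b held 2.57% in CT (2.43 to 2.71%) and 2.03% in CC (1.92 to 2.14%). These pairs of intervals did not overlap between the libraries, but counting intervals are narrow at this depth. Among miRNAs with at least 50 counts, 102 of 149, or 68.5%, had a CT to CC interval without a ratio of 1. Shares within other clusters were not computed. The whole cluster took 51476 counts in CT and 60769 in CC, which is 0.976% of the CT library and 1.05% of the CC library.

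The miRNAs of the cluster were therefore far from equal in counts. Within CT, miR-27b had 35.1 times the counts of miR-23b (33.2 to 37.1), and within CC it had 43.5 times (41.1 to 46.0). miR-27b stood at 12.1 times miR-24 in CT (11.7 to 12.5) and 9.05 times in CC (8.81 to 9.30). The smallest gap was that of miR-24 over miR-23b, at 2.90 in CT (2.72 to 3.09) and 4.80 in CC (4.52 to 5.11). Because both sides of such a ratio come from the same library, no scaling between the libraries enters it. It still carries differences between miRNAs in adapter ligation and read assignment, so it is a ratio of counts and not of molecules.

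**Figure D2:**
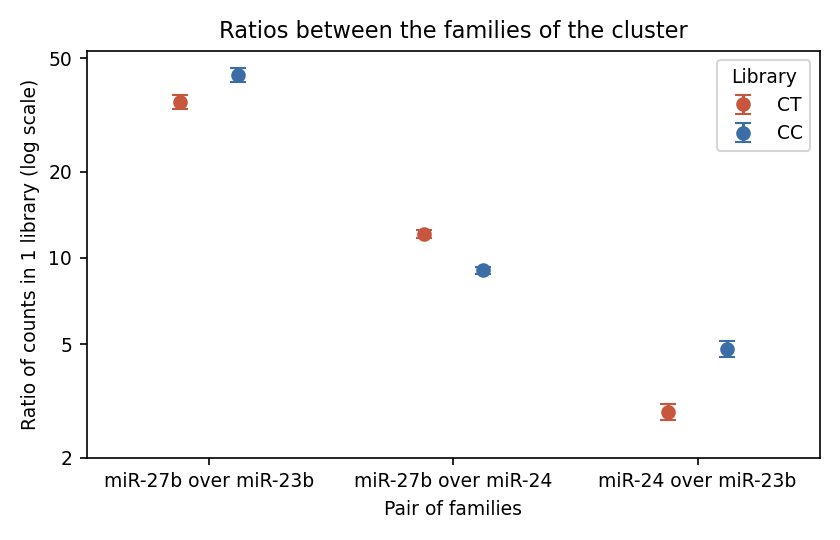
Ratio of counts between families of the cluster within 1 library, on a log axis, with all arms of a family summed, for CT (red, left) and CC (blue), with exact conditional 95% intervals. The intervals cover counting error only, and miR-24 over miR-23b is 2.90 in CT and 4.80 in CC.

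The ratios were not the same in the 2 libraries. That of miR-24 to miR-23b in CT was 0.603 times its value in CC (exact conditional interval 0.552 to 0.659). That of miR-27b to miR-23b was 0.807 times its value in CC (0.745 to 0.873), and that of miR-27b to miR-24 was 1.34 times (1.28 to 1.40). With the most abundant arm of each family in place of the sum, the values in CT over CC were 0.596, 0.799 and 1.34 in the same order. All 3 intervals lay apart from 1, but the 3 ratios are not separate results, since each follows from the other 2. They compare the reads of these libraries and not the conditions. How often such an interval lies apart from 1 for pairs in other clusters was not computed.

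Set against CC, miR-24-3p was lower, miR-23b-3p was higher and miR-27b-3p was close to level in CT. miR-24-3p, the arm linked to MYC and E2F2 in human cells, was 1.42-fold lower (1.36 to 1.48), a log2 ratio of -0.50 (-0.56 to -0.44). miR-23b-3p, the arm linked to TAB2 and TAB3 in mice, had a ratio of 1.18 (1.09 to 1.28), a log2 ratio of 0.24 (0.13 to 0.36). miR-27b-3p, the arm linked to PPARG, was 1.06-fold lower (1.04 to 1.07), a log2 ratio of -0.08 (-0.10 to -0.06). Its partner miR-27b-5p had a log2 ratio of -0.09 with a wider interval (-0.41 to 0.22) that holds 0. The lowest of the 4 was thus miR-24-3p and the highest miR-23b-3p, and their intervals did not overlap.

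The arms with fewer counts had intervals too wide for a direction. miR-24-5p had a log2 ratio of 0.58 (-0.64 to 1.85), and miR-23b-5p had -1.23 (-2.73 to 0.10). Both are opposite in sign to their 3p partner, and both intervals hold 0. The summed cluster was 1.08-fold lower in CT (1.07 to 1.09), at 9763 CPM in CT and 10527 CPM in CC, a log2 ratio of -0.11 (-0.13 to -0.09). This sum follows miR-27b-3p, which makes up most of it.

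A rule of size was used for the table as a whole, a ratio of at least 2 in either direction. It was applied to miRNAs whose counts in CT and CC add to 50 or more, and was met by 11 of 149 miRNAs, or 7.38%. Of the 6 members 4 reached the minimum of 50 counts, and 0 of these 4 met the rule. Intervals without a ratio of 1 were found for 3 of the 4 members, against 102 of the 149, or 68.5%, so the members' share is near that of the table. The members' median log2 ratio was -0.09, with 1 higher and 3 lower in CT, beside a median of 0.02 over the 149, with 79 higher and 70 lower. By size of the log2 ratio, 28.2% of the 149 were farther apart than miR-24-3p, 59.7% than miR-23b-3p and 83.9% than miR-27b-3p. miR-24-3p had 16 miRNAs with a lower ratio and 132 with a higher one.

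**Figure D3:**
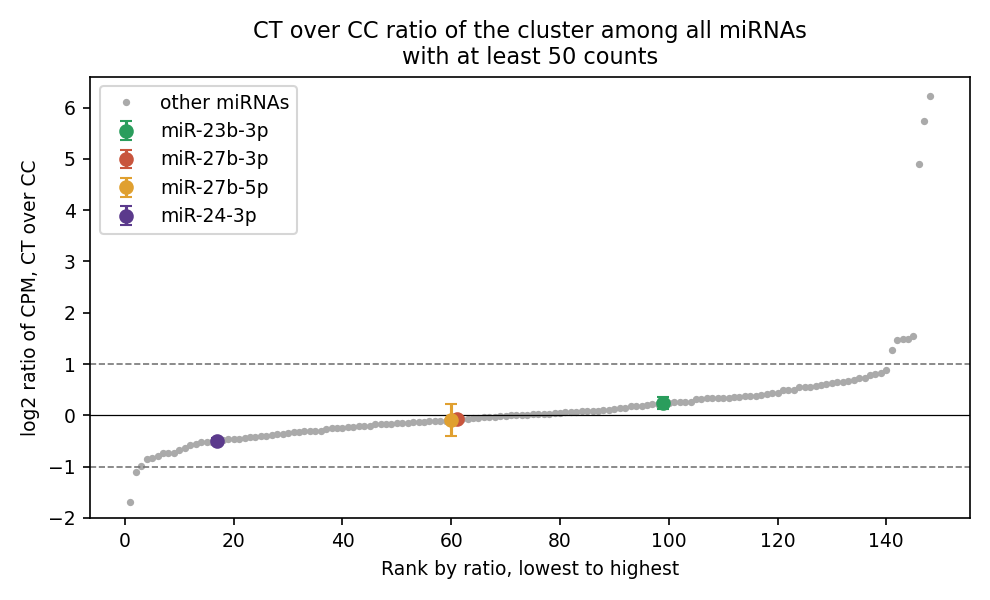
The log2 ratio of CPM, CT over CC, of miRNAs whose counts in CT and CC add to 50 or more, in order of ratio, leaving out 1 miRNA with 0 counts in CC. Coloured points are the 4 members with exact 95% counting intervals, dashed lines mark 2-fold, and grey points are all other miRNAs. The members lie between -0.50 for miR-24-3p and 0.24 for miR-23b-3p, inside the dashed lines.

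The 3p arms kept the sign of their ratios under each scaling tried. With TMM factors, median-of-ratios size factors or totals counted without the 10 most abundant miRNAs, the log2 ratio of miR-27b-3p ran from -0.14 to -0.02. It came nearest to 0 with the last of these. That of miR-24-3p ran from -0.57 to -0.44 over the same settings, and that of miR-23b-3p from 0.18 to 0.30.

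In arm balance all 3 hairpins were on the side of the 3p arm. The 3p arm took 99.7% of the miR-27b counts in CT (99.6 to 99.7%) and 99.6% in CC (99.6 to 99.7%), a difference of 0.0031 percentage points. That is 287 reads of miR-27b-3p for each read of miR-27b-5p in CT and 284 in CC. For miR-24 the share was 99.6% in CT (99.4 to 99.8%) and 99.8% in CC (99.7 to 99.9%). For miR-23b it was 99.5% in CT (98.9 to 99.8%) and 98.5% in CC (97.7 to 99.1%). Set as a ratio of ratios, the 3p reads per 5p read of miR-23b, 188 in CT and 67.5 in CC, were 2.78 times as high in CT (exact conditional interval 1.10 to 7.90). This interval lies apart from 1 but rests on 7 and 18 reads of the 5p arm, and the share intervals of miR-23b overlapped between the libraries. How often such a ratio of ratios lies apart from 1 in other hairpins was not computed. Among the members, the ratio of ratios was 0.473 for miR-24 (0.196 to 1.10) and 1.01 for miR-27b (0.813 to 1.25), and both of these intervals hold 1.

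So one-sided a balance was common in the table, but its direction was less so. Of 65 hairpins with both arms listed by name and at least 50 counts in all, the leading arm held at least 98% in 36 hairpins in CT and in 39 in CC. The median share of the leading arm was 99.3% in CT and 99.4% in CC. The 3p arm led in 23 of the 65 in each library, or 35.4%. The members are among these counts. In the predicted folds, the first 4 bases of the 5p arm held 2 G:C pairs and those of the 3p arm 1 in both miR-24 and miR-23b. In miR-27b each arm held 1. As background, the strand whose 5′ end is less firmly paired is the one more often kept, as is a strand that starts with U. The 3p arms of miR-27b and miR-24 start with U and that of miR-23b with A, whereas the 5p arms start with A in miR-27b and with G in the other two. Over all rows 45.1% start with U, 26.7% with A and 7.99% with G. With 3 hairpins these features are a description only.

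How unusual the gaps between miR-27b, miR-24 and miR-23b are was read against a list of other clusters known from vertebrates. A cluster was used where at least 2 families matched a row by exact name, with at least 1 count for each in both libraries. Names with another letter were missed. This left out miR-221-3p and miR-222a, close at 2291 and 2434 counts in CT. It also left out miR-199-5p and miR-214, farther apart at 12808 and 469 in CT. The medians hold for the matched clusters only. Each family was stood for by its more abundant arm. The highest member was 35.1 times the lowest in CT and 44.0 times in CC for this cluster, against a median over 16 other clusters of 13.4 in CT and 13.5 in CC. In both libraries 4 of the 16 had a wider gap. The widest was that of miR-130b over miR-301b, at 186 in CT and 333 in CC, where miR-301b-5p, the arm used, had 45 counts over both libraries. The miR-17 to miR-92 cluster spanned 139 in CT and 128 in CC. Where each family had at least 50 counts, 13 other clusters remained, with a median of 18.1 in CT and 14.7 in CC. Of these 13, 3 had a wider gap in each library. A gap also grows with the number of families in a cluster. Some families, such as miR-16, have copies outside their cluster, so a gap can mix loci. The deposited table gives no genome position for miR-27b, miR-24 or miR-23b. Whether their reads all come from a single locus was therefore not checked, and their gaps carry the same limit.

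**Figure D4:**
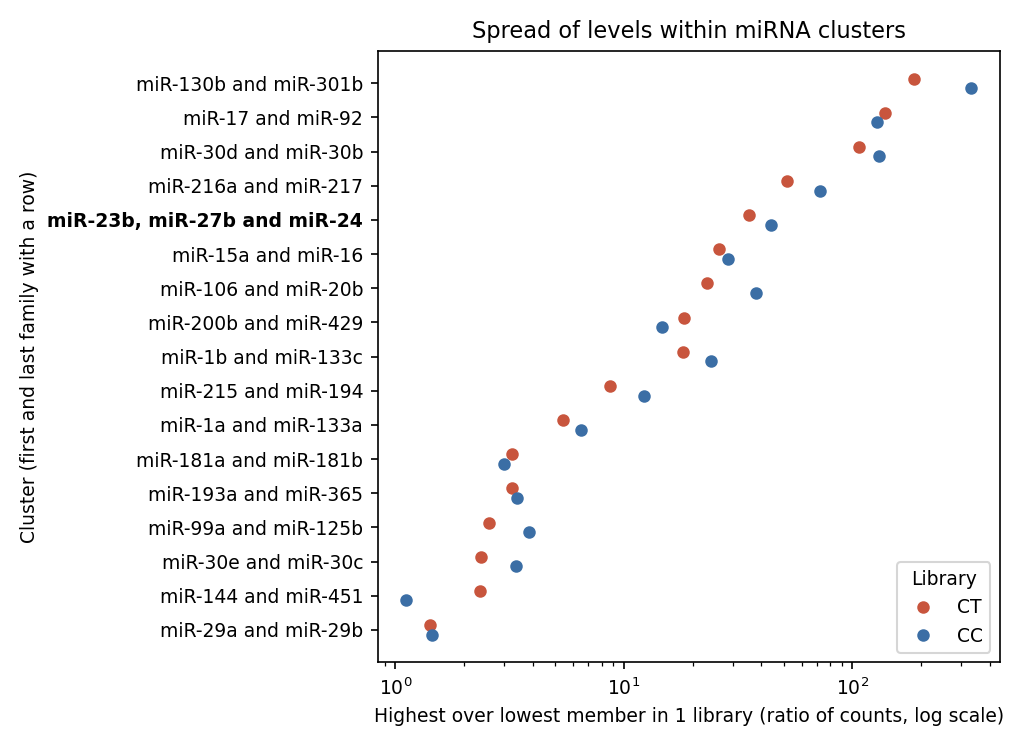
Counts of the highest over the lowest member of each cluster within 1 library, on a log axis, for CT (red, upper point) and CC (blue, lower point), with clusters in order of the CT value. The cluster in bold lies at 35.1 in CT and 44.0 in CC, and 4 of the other 16 clusters lie farther right in each library.

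The ratios of CT to CC also lay farther apart within this cluster than in most of the others. From miR-23b-3p at the top to miR-24-3p at the bottom, its log2 ratios spanned 0.75, against a median span of 0.41 over the 16. A wider span was found in 3 of the 16. Where each family of a cluster had at least 50 counts, 13 other clusters remained and 1 of these was wider, that of miR-216a, miR-216b and miR-217 at 1.31, in which miR-216a had 3 counts in CC. The miR-106 to miR-20b cluster had a similar span, 0.72. A span grows with the number of families and with counting error, and it was given no test.

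miRNAs that mark cell types also differed between the libraries, and their part in the ratios of the cluster was not tested. The endothelial list, which is miR-126 alone, summed to 5451 CPM in CT and 9301 CPM in CC. Its 2 rows are the arms of 1 hairpin. miR-126-3p was 1.72-fold lower in CT (1.70 to 1.75), and miR-126-5p 1.09-fold lower (0.995 to 1.20), an interval that holds 1. The striated muscle list summed to 6638 CPM in CT and 8873 CPM in CC, with 5 of 8 rows lower in CT, and miR-206 was at 0 in CT with 1 count in CC. Most of the sum was miR-1a-3p, at 3832 CPM in CT and 5128 CPM in CC, and miR-1b-3p, at 1963 and 2820 CPM. Whether these reads came from striated muscle was not tested. Of the smooth muscle and fibroblast list only miR-214 of the 4 matched by name, at 88.9 CPM in CT and 149 CPM in CC. miR-199a was not matched, since the table lists miR-199 without the letter. Its rows hold more counts and smaller log2 ratios, -0.30 for miR-199-5p with 12808 counts in CT and 17289 in CC. miR-199-3p had -0.22, with 11118 and 14208 counts. The epithelial list summed to 509192 CPM in CT and 453489 CPM in CC, with 7 of 9 rows higher in CT and 2 lower. Most of this sum was miR-215-5p, at 435164 CPM in CT and 405612 CPM in CC, a ratio of 1.07. Ratios were larger for miR-200b-3p (1.78), miR-200a-3p (1.57), miR-194 (1.51) and miR-429-3p (1.40). The 2 lower rows were miR-200a-5p, at 0.916, and miR-215-3p, with 1 count in CT and 2 in CC. The white blood cell list summed to 145 CPM in CT and 128 CPM in CC, and its rows were divided. Both arms of miR-142 were higher in CT, miR-223 was 1.97-fold lower (1.43 to 2.76), with 56 counts in CT and 121 in CC, and miR-155 had 1 count in each library. The pancreas list summed to 5906 CPM in CT and 1261 CPM in CC, with 5 of 5 rows higher in CT. Most of the sum was miR-375, at 3365 CPM in CT and 1206 CPM in CC, a ratio of 2.79. The other rows were farther apart. miR-217-5p stood at 1996 CPM in CT and 37.6 CPM in CC, a ratio of 53.1 (46.4 to 61.0), and miR-216b had a ratio of 30.0 (24.5 to 37.1). The ratios of miR-216a, 74.4, and miR-217-3p, 44.9, rest on 3 counts and 1 count in CC. No row of the endothelial, epithelial, pancreas or white blood cell lists was at 0. In a whole tissue, fewer cells of a type and less of a miRNA per cell cannot be told apart.

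miR-27b-3p, miR-24-3p and miR-23b-3p had different neighbours by level. Likeness was measured over the 2 libraries as the distance in log2 CPM, among 147 other miRNAs with at least 50 counts. Nearest to miR-27b-3p were miR-26a-5p (distance 0.23), miR-30d (0.24) and miR-10a-5p (0.27). Nearest to miR-24-3p were let-7b (0.26), let-7c-5p (0.27) and miR-125b-5p (0.36). Nearest to miR-23b-3p were miR-106-5p (0.085), miR-30a-3p (0.18) and miR-122-5p (0.27). The 3 neighbours of miR-24-3p had log2 ratios of -0.25, -0.17 and -0.39, and those of miR-27b-3p had -0.33, 0.03 and -0.46. Those of miR-23b-3p had 0.14, 0.13 and -0.01. The neighbours were picked by their levels in CT and CC, so a shared direction is partly built in. With only 2 libraries, such likeness is a matter of level more than of pattern.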

How the data were processed

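1 library of transported and 1 of control ducks were used. Per the labels' protocols, Trizol RNA (10 µg) was run on a 15% TBE-urea gel, the 20 to 30 nt fraction was kept, and standard Illumina libraries were made. Per the file headers, the deposited table holds read counts and TPM for each mature miRNA. The deposited TPM equal the count per 1e6 counts of the library within 4.3e-05, hold no term for length, and are given as CPM. No aligner, miRNA release or build is given in the sources used here, nor whether the reads were set against duck or chicken miRNAs. Such a choice, like adapter ligation and amplification, can raise or lower a miRNA relative to another in both libraries alike.

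Ratios of CT to CC and between miRNAs have exact conditional (Clopper-Pearson) intervals, shares exact binomial ones and CPM exact Poisson ones. Only the intervals of the ratios between libraries were checked on simulated data. Intervals and floors (3 counts) cover counting error only. No molecular identifiers are mentioned, so reads copied in amplification could not be told apart, and the intervals treat each read as separate. The depth was 5272666 counts in CT and 5772509 in CC. The minimum was 50 counts over both libraries and the rule of size 2-fold, with 1 library per group and no test. The members, the lists and the clusters were chosen with earlier results of these data known. Named miRNAs are the members, rows that share a seed or sequence with them, the 3 nearest by level of each leading arm, and the ends of ranges. Some miRNAs of the cell type lists and of the other clusters are named too, as are some rows that exact names missed. Alternatives were the TMM factors of edgeR 4.0.16, the median-of-ratios factors of DESeq2 1.42.0, other totals, minimums, a pseudocount of 5 CPM, a 1.5-fold rule and leading arms only. Folds used ViennaRNA RNAfold 2.7.2. Computation used Python 3.11.15, numpy 2.4.6, scipy 1.17.1, pandas 2.3.3, matplotlib 3.10.9 and R 4.3.3.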

Additional observations from a re-analysis of the deposited data

How the results depend on the processing

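Of 82 recomputed values 69 stayed within the counting interval, or within 1.5 times for counts, and 0 changed sign where the interval lay apart from 0. All alternatives were planned. The log2 ratio of miR-27b-3p, -0.08 with library totals, was -0.12 with TMM factors, -0.14 with size factors and -0.020 without the 10 most abundant miRNAs. In the same order the summed cluster, at -0.11, had -0.15, -0.17 and -0.049. miR-24-3p, at -0.50, had -0.57 with size factors and -0.44 without the 10 most abundant, and the members' median, at -0.09, had -0.027 with the latter setting. These settings move every log2 ratio by -0.05, -0.06 and 0.06. Among all miRNAs, 11 were past the 2-fold rule. A minimum of 500 counts left 3, asking only for 1 count in both libraries gave 46, and a 1.5-fold rule gave 33, as these settings keep fewer or more by construction. Without the minimum, 1 member, miR-23b-5p with 7 counts in CT and 18 in CC, was past 2-fold, against 0 with it. Shares of families and ratios between families stayed within their intervals. Arm shares joined by hairpin were the same by construction, because each family has 1 hairpin. So were member ratios with rows of identical or contained sequence summed, because no member had such a row. The values of both settings are counted among the 69 and say nothing on stability. No paired analysis was possible because each group has 1 library. Depth limits the 5p arms of miR-24 and miR-23b most.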
